A study of Mus musculus with 4 samples.

Results

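The Hes and Hey genes examined here were *Hes1*, *Hes5*, *Hes6*, *Hes7*, *Hey1*, *Hey2* and *Heyl*, and all 7 were found by gene symbol among the 23997 genes of the expression table. They were compared between 2 populations of hair cell (HC) progenitors that had been sorted by FACS from the cochleae of C57BL/6 mice at postnatal day 3. Lgr5+ progenitors were the EGFP+ cells of Lgr5-EGFP-IRES-CreERT2 mice and Lgr6+ progenitors were those of Lgr6-EGFP-IRES-CreERT2 mice, so EGFP marked the cells in which the respective Lgr locus was active. Neither population had been treated. By the sample labels there were 4 libraries, 2 from each population, and by the methods the libraries of a population were fractions of one RNA extract. The deposited table holds 1 combined FPKM value (fragments mapped to a transcript, scaled by its length and by the depth of the library) for each gene and population. The spread between libraries was therefore not known, no test between the populations was possible, and each difference described here has no replicate check. In the table, whose intervals fit GRCm38 and are given here counted from 1, the genes lie as follows, each interval spanning the whole gene: *Hes1* at chr16:30065357-30067796, *Hes5* at chr4:154960923-154962371, *Hes6* at chr1:91411483-91413222, *Hes7* at chr11:69120453-69123259, *Hey1* at chr3:8663359-8667038, *Hey2* at chr10:30832359-30842783 and *Heyl* at chr4:123233556-123249870.

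The Hes and Hey proteins are basic helix-loop-helix repressors of the bHLH-Orange family. When a Notch ligand on one cell engages a Notch receptor on its neighbour, the intracellular part of the receptor is released, enters the nucleus, binds the DNA-binding protein Rbpj and turns on Hes and Hey genes. In the cochlea, HCs carry the ligands, and the surrounding supporting cells (SCs) respond with Hes and Hey proteins that hold down *Atoh1*, the transcription factor that starts HC differentiation. *Hes6* stands apart in this family, since its protein is known to oppose Hes1 and the gene is expressed in differentiating neurons and HCs. *Hes7* is best known from the segmentation clock of the embryo.

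Rbpj recognizes a short motif in the promoters of Notch target genes. Promoter sequences from RefSeq (GRCm38.p6), each running from 250 bases before to 50 bases after a start site, were matched to 4 of the 7 genes, *Hes5*, *Hes6*, *Hes7* and *Hey2*. *Hes1*, *Hey1* and *Heyl* had no entry. The stretches below are shown because *Hes5* and *Hey2* had the largest differences between the populations and *Hes7* was the gene listed at 0 in Lgr5+ progenitors. Each is written 5′ to 3′ on the strand of the gene, ends 10 bases after the start site, and has the motif GTGGGAA or its reverse complement TTCCCAC in capitals. The *Hes5* stretch is chr4:154960673-154960932 (plus strand), the *Hey2* stretch chr10:30842774-30843033 (minus strand) and the *Hes7* stretch chr11:69120203-69120462 (plus strand).
Hes5: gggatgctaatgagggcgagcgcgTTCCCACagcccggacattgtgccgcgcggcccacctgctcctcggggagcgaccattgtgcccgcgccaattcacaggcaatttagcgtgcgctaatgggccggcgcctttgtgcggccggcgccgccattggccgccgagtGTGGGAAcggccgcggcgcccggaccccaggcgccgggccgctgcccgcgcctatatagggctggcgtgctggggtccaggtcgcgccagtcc
Hey2: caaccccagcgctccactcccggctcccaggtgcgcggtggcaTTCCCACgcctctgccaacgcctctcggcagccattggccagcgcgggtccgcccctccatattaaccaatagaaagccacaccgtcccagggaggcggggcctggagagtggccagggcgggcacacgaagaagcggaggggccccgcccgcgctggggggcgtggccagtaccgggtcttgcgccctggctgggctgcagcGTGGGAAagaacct
Hes7: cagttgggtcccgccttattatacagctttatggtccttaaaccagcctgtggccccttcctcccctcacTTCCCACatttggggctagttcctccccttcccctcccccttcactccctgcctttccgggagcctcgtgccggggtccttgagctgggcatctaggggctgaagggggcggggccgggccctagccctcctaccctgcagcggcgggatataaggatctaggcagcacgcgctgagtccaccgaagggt

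In *Hes5* the motif lay on the reverse strand at positions -226 to -220 and on the gene's strand at -83 to -77, counted from the start site at 1. In *Hey2* it lay on the reverse strand at -207 to -201 and on the gene's strand from -4 to 3, across the start site. *Hes7* held 1 match, on the reverse strand at -180 to -174, and neither start site of *Hes6* had one. Of all 32851 promoter windows of this length, 6.38% held at least 1 match and 0.256% held at least 2. The N-box CACNAG, a Hes binding motif whose first 3 letters can overlap the end of TTCCCAC, was found on either strand in 42.5% of all windows. It occurred once in *Hes7* and at 1 of the 2 start sites of *Hes6*. The E-box CACGTG, which Hey proteins also bind, was in 7.15% of all windows and in none of those of the 4 genes. These matches describe the letters of the windows and are not evidence that a factor was bound.

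Of the 23997 genes, 13436 that reached an FPKM of 1 in either population were kept, and all 7 Hes and Hey genes were among them. Differences are given as log2(FPKM + 1) in Lgr6+ minus that in Lgr5+ progenitors, so a negative value means a higher level in Lgr5+ progenitors, and the added 1 understates differences of low genes. The median difference of the kept genes was 0.03. FPKM summed to 754163 in Lgr5+ and to 627932 in Lgr6+ progenitors, and 9439 and 8215 genes were listed at 0. The files hold no counts, but low values multiplied by the length of the transcript piled up near 0.129 FPKM times kilobase in Lgr5+ progenitors. In Lgr6+ progenitors they piled up near 0.0403. Each of these levels was taken as 1 step. If 1 step is 1 fragment, the combined Lgr6+ value rests on 3.19 times as many fragments.

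Before the Hes and Hey genes, the sorting genes and the identity of the cells were examined. *Lgr5* had an FPKM of 9.65 in Lgr5+ and 24.99 in Lgr6+ progenitors, and *Lgr6* had 2.06 and 2.90, so neither gene was higher in Lgr5+ progenitors. The populations are named as in the deposited table. *Sox2*, the SC marker used in the study, had 139.6 in Lgr5+ and 54.8 in Lgr6+ progenitors. All 10 SC markers of a fixed list were kept, with a summed FPKM of 4014 and 5015 and a median difference of -0.22. Only *Sox2* lay past 1.5-fold toward Lgr5+ progenitors, beside 23.3% of all kept genes. Another 2 lay past it toward Lgr6+ progenitors, beside 28.5%, and 7 were under 1.5-fold. In both populations the highest SC marker was *S100a1*, with 2959 and 3177.

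*Hes5* was the most abundant of the 7 genes in Lgr5+ progenitors. Its FPKM was 505 in Lgr5+ and 91.7 in Lgr6+ progenitors, a ratio of 5.51 and a difference of -2.45. The protein is a classical Notch effector in SCs. Among the 13436 kept genes, 113 had a more negative difference, or 0.841%. Among the 2274 genes that reached an FPKM of 50 in either population, a limit chosen after seeing the data, 7 had a more negative difference. *Hes5* ranked 258 by FPKM among the kept genes in Lgr5+ progenitors and 1065 in Lgr6+ progenitors.

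*Hey2* had an FPKM of 19.02 in Lgr5+ and 3.48 in Lgr6+ progenitors, a ratio of 5.47 and a difference of -2.16. Hey2 is known in the cochlea as a repressor that can maintain pillar cells, a type of SC, without Notch signaling. Its ratio between the populations was thus close to that of *Hes5*, at a level that was lower by 26.6 times in Lgr5+ and 26.4 times in Lgr6+ progenitors. Of the kept genes, 1.39% had a more negative difference than *Hey2*. With its annotated transcript of 2550 bases, the values of *Hey2* correspond to 348 steps in Lgr5+ and 203 in Lgr6+ progenitors, well above 1 step.

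*Hes1*, the other main Hes repressor of *Atoh1* in the developing cochlea, had an FPKM of 172 in Lgr5+ and 66.3 in Lgr6+ progenitors, a ratio of 2.596 and a difference of -1.36. Its difference lay between those of *Hey2* and *Hes6*, with 5.81% of the kept genes further toward Lgr5+ progenitors. Against *Sox2* in the same population, *Hes1* was at 1.23 times its FPKM in Lgr5+ and 1.21 times in Lgr6+ progenitors. *Hes5* was at 3.62 and 1.67 times that of *Sox2*, so the distance between the populations was smaller for *Hes5* on this scale and nearly gone for *Hes1*. *Hey2* was at 0.136 and 0.0635 times the FPKM of *Sox2*. For *Hes6* (2.43 and 3.29) and *Hey1* (0.614 and 0.837) the ratio to *Sox2* was higher in Lgr6+ progenitors, the opposite direction to their FPKM. *Sox2* itself had a difference of -1.33, against a median of -0.22 over the SC markers. It was the only one of them past 1.5-fold toward Lgr5+ progenitors, so the ratio to *Sox2* does not stand for the list.

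*Hes6* and *Hey1* were also higher in Lgr5+ progenitors, by less. *Hes6* had 339 in Lgr5+ and 180.5 in Lgr6+ progenitors, a ratio of 1.88 and a difference of -0.90. *Hey1*, a Hey repressor of prosensory progenitors, had 85.7 and 45.9, a ratio of 1.87 and a difference of -0.89. Their ratios between the populations were nearly the same, and *Hes6* was at 3.95 times the FPKM of *Hey1* in Lgr5+ and at 3.94 times in Lgr6+ progenitors. Among the kept genes, 13.96% lay further toward Lgr5+ progenitors than *Hes6* and 14.3% further than *Hey1*. When both populations were scaled by the median level of the SC markers, the differences were -0.28 for *Hes6* and -0.27 for *Hey1* and no longer reached 1.5-fold, while their direction was kept, unlike in the ratio to *Sox2*.

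*Heyl* and *Hes7* were higher in Lgr6+ progenitors. *Heyl*, a family member also known from blood vessels, had 6.50 in Lgr5+ and 11.2 in Lgr6+ progenitors, a ratio of 1.73 in favour of Lgr6+ progenitors and a difference of 0.70. *Hes7* had 1.84 in Lgr6+ progenitors and was listed at 0 in the other population, a difference of 1.51 whose size is set by the added 1, so no ratio is given. For the *Hes7* transcript of 1809 bases, 1 step is worth an FPKM of 0.0799 in Lgr5+ and 0.025 in Lgr6+ progenitors, and the Lgr6+ value corresponds to 73.7 steps. An estimate that failed may be listed as 0 as well. Of the kept genes, 25.1% had a higher difference than *Heyl* and 9.05% a higher difference than *Hes7*.

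**Figure D1:**
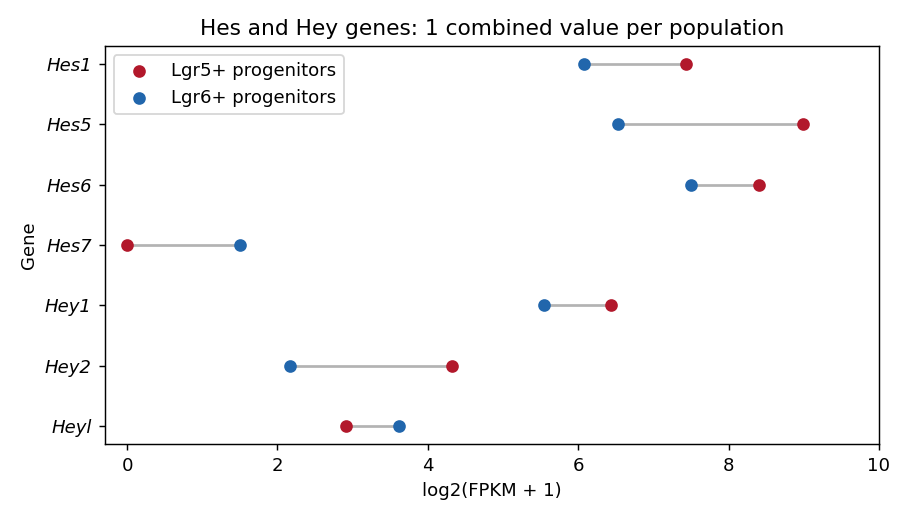
Level of the 7 Hes and Hey genes as log2(FPKM + 1) in Lgr5+ progenitors (red) and Lgr6+ progenitors (blue), with 1 combined value per population and no error bars. The red point lies to the right for *Hes1*, *Hes5*, *Hes6*, *Hey1* and *Hey2*, with the widest gaps for *Hes5* (-2.45) and *Hey2* (-2.16), and to the left for *Hes7* and *Heyl*.

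In all, 5 of the 7 genes lay past 1.5-fold toward Lgr5+ progenitors, beside 23.3% of all kept genes. The other 2, *Hes7* and *Heyl*, lay past it toward Lgr6+ progenitors, beside 28.5%. Since 51.8% of the kept genes passed in either direction, passing was not by itself unusual. At 2-fold, *Hes1*, *Hes5* and *Hey2* remained toward Lgr5+ progenitors, 3 of 7 beside 11.7% of the kept genes, and *Hes7* toward Lgr6+ progenitors, 1 of 7 beside 18.2%, with 29.9% of the kept genes past 2-fold in either direction. Each of the 4 genes that reached an FPKM of 50, *Hes1*, *Hes5*, *Hes6* and *Hey1*, was past 1.5-fold toward Lgr5+ progenitors, beside 29.1% of all genes at that level, where 14.9% passed toward Lgr6+ progenitors and 44% in either direction. *Hes7* dropped out where an FPKM of 5 was asked of either population, which left 5 genes toward Lgr5+ and *Heyl* toward Lgr6+ progenitors, beside 24.1% of genes toward each and 48.2% in either direction. The same 5 genes and *Heyl* were left where an FPKM of 1 was asked of both populations, beside 22.5% toward Lgr5+, 21.4% toward Lgr6+ and 43.9% in either direction. The median difference was -0.90 over the 7 genes, against 0.03 over all kept genes and -0.21 over those that reached 50. The ratio to *Sox2* alone turned the directions of *Hes6* and *Hey1*. Those of the 7 genes were the same under the 5 scalings of the whole table that were run. Scalings by a factor could not have turned them, since they moved log2 values by at most 0.63, always toward Lgr6+ progenitors. Under these scalings the totals of all kept genes moved, from 3136 and 3826 past 1.5-fold toward Lgr5+ and Lgr6+ progenitors to 2214 and 4993 after scaling to the same summed FPKM and to 1354 and 6859 after scaling by the median level of the SC markers.

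**Figure D2:**
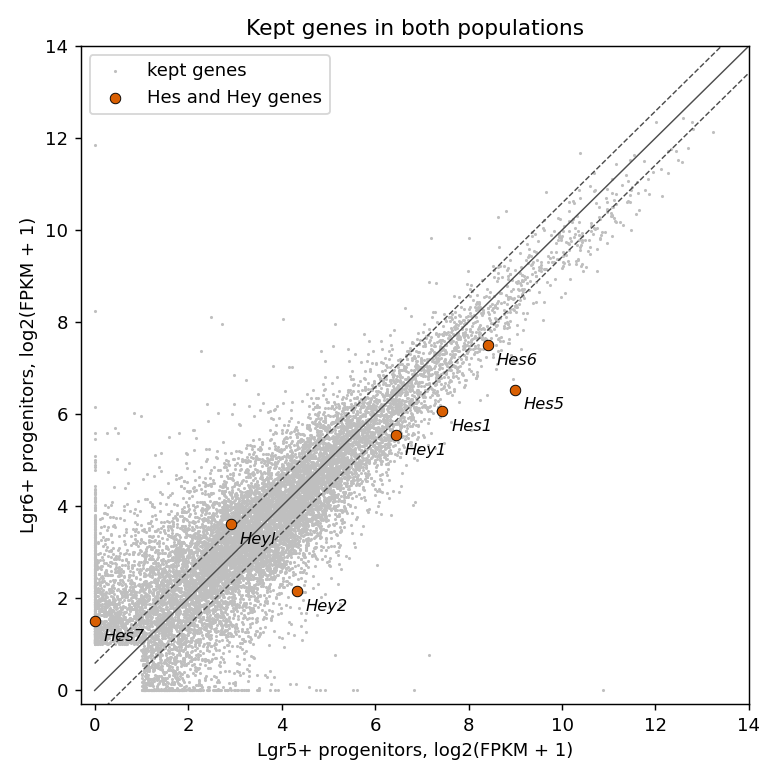
The 13436 kept genes (grey points) and the 7 Hes and Hey genes (orange) by log2(FPKM + 1) in Lgr5+ progenitors (x axis) and Lgr6+ progenitors (y axis), with the line of equal values and dashed lines at 1.5-fold. *Hes5* and *Hey2* lie at the lower right edge of the cloud, where 0.841% and 1.39% of the kept genes have a more negative difference, and *Heyl* lies just past the upper dashed line.

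The make-up of Hes and Hey expression differed as well. The 7 genes summed to an FPKM of 1127 in Lgr5+ and 401 in Lgr6+ progenitors, a ratio of 2.81. Without *Hes5* the sums were 622 and 309, a ratio of 2.01. The Hes genes together were 2.98 times higher in Lgr5+ progenitors and the Hey genes 1.84 times. *Hes5* made up 44.8% of the sum in Lgr5+ and 22.9% in Lgr6+ progenitors. *Hes6* made up 30.0% and 45.0%, which made it the most abundant of the 7 genes in Lgr6+ progenitors. The FPKM of *Hes5* was 1.49 times that of *Hes6* in Lgr5+ and 0.508 times in Lgr6+ progenitors. The share of *Hes1* was 15.3% and 16.5% and that of *Hey1* 7.61% and 11.4%, so these genes followed *Hes5* and *Hes6* in both populations. *Hey2* and *Heyl* changed places, since *Hey2* was at 2.92 times the FPKM of *Heyl* in Lgr5+ and at 0.31 times in Lgr6+ progenitors. *Hes7* was lowest in both. Ratios within a population do not depend on how the populations were scaled against each other. Whether neighbours in these orders differ beyond the spread between libraries cannot be told from 1 value per population.

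**Figure D3:**
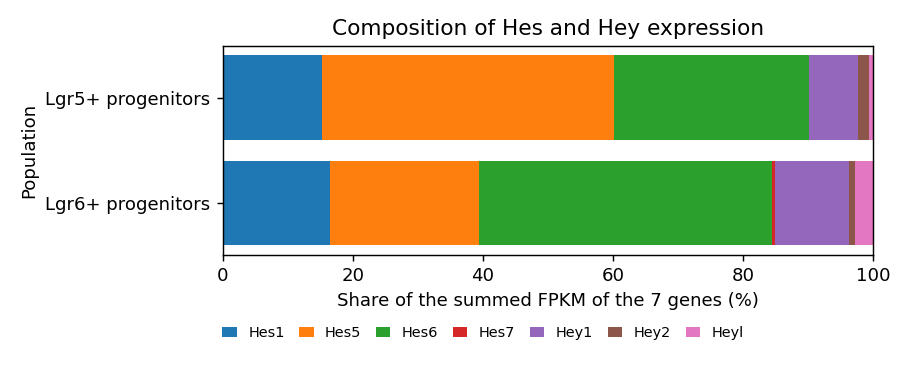
Share of the summed FPKM of the 7 Hes and Hey genes (x axis, percent) taken by each gene (colours) in Lgr5+ progenitors and in Lgr6+ progenitors. *Hes5* takes 44.8% of the sum in Lgr5+ and 22.9% in Lgr6+ progenitors, and *Hes6* takes 30.0% and 45.0%.

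For each gene the 3 kept genes nearest to it in log2(FPKM + 1) over both populations were found. With only 2 values per gene, this likeness means a like level in each population and no more. The region around *Hes5* was sparse. Its nearest gene was *Oc90*, which encodes an otoconial protein of the inner ear, with an FPKM of 494 in Lgr5+ and 107.3 in Lgr6+ progenitors and a distance of 0.226 log2 units. It was followed by *Smim22* and *Pcbp4* at 0.569 and 0.599. The genes nearest to *Hey2* were *Zfp566*, *Lhpp* and *Slc35f3*, at distances of 0.0217 to 0.077. For *Hes1* they were *2210016L21Rik*, *Aimp1* and *Ppp1r1a*, at 0.0958 to 0.103. For *Hes6* they were *Cfdp1*, *Snrpd1* and *Psmd4*, at 0.131 to 0.136, and for *Hey1* they were *Ilf2*, *Smarce1* and *Mphosph8*, at 0.0392 to 0.0736. *Heyl* lay nearest to *Ints1*, *Rsph3b* and *Mtus2*, at 0.0162 to 0.0411. *Hes7* lay nearest to *Casq1*, *Vstm2l* and *Fam163b*, which were likewise listed at 0 in Lgr5+ progenitors.

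The Hes and Hey genes were then set beside 69 genes of the Notch pathway and of the bHLH network in which these repressors act, grouped by role. Of the 59 that were kept, 21 lay past 1.5-fold toward Lgr5+ and 10 toward Lgr6+ progenitors. The numbers were 18 and 12 with the upper quartile, 22 and 10 with quantile normalization and 16 and 14 with the summed FPKM. With the median ratio of the SC markers, added after seeing the data, they were 16 and 13. After scaling by the median level of the SC markers, the largest factor used, they were 6 and 27. Before that scaling, 23.3% and 28.5% of all kept genes lay past 1.5-fold in these directions, and after it 1354 and 6859 of the 13436 did. The counts of the whole table thus swung in the same direction. The median difference of the 59 genes was -0.17.

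Directly upstream of the Hes and Hey genes, 1 of 3 kept Notch receptors and 4 of 8 genes of the nuclear complex lay past 1.5-fold toward Lgr5+ progenitors, and 1 gene of that complex lay past it toward Lgr6+ progenitors. *Notch1*, the most abundant receptor, had an FPKM of 42.1 in Lgr5+ and 19.8 in Lgr6+ progenitors, a difference of -1.05. *Notch3* and *Notch4* were under 1.5-fold and *Notch2* was below an FPKM of 1 in both. *Rbpj* had 17.01 and 7.82, a difference of -1.03, and of the other genes of the nuclear complex *Snw1* (-1.18), *Maml3* (-1.08) and *Kat2a* (-0.64) were also past 1.5-fold toward Lgr5+ progenitors. *Maml2*, a coactivator of the same family as *Maml3*, went the other way, with 4.66 and 12.7 and a difference of 1.27. Among the 9 inhibitors and feedback genes, 5 lay toward Lgr5+ and 1 toward Lgr6+ progenitors. For comparison with these lists, 23.3% of all kept genes lay past 1.5-fold toward Lgr5+ progenitors, 28.5% toward Lgr6+ progenitors and 51.8% in either direction. *Nrarp*, a feedback inhibitor that is itself a Notch target, had 20.95 in Lgr5+ and 6.90 in Lgr6+ progenitors, a difference of -1.47, which lay between those of *Hes1* and *Hey2*. The ubiquitin ligase genes *Dtx1*, *Dtx2*, *Dtx4* and *Fbxw7* were also past 1.5-fold toward Lgr5+ progenitors, from -0.74 to -1.16, and *Dtx3* was higher in Lgr6+ progenitors at 0.60.

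Ligands and their modifiers did not follow the Hes and Hey genes as a group. *Jag1*, the ligand of prosensory cells and SCs, had an FPKM of 107.5 in Lgr5+ and 59.2 in Lgr6+ progenitors, a difference of -0.85, and was the only ligand past 1.5-fold toward Lgr5+ progenitors. *Jag2*, *Dll1* and *Dll3* were past 1.5-fold toward Lgr6+ progenitors. Of all kept genes, 23.3% lay past it toward Lgr5+ progenitors, 28.5% toward Lgr6+ progenitors and 51.8% in either direction. *Jag2*, a ligand of nascent HCs, had 9.21 and 32.7, a difference of 1.72. *Dll1*, the other such ligand, had 7.80 and 17.9, a difference of 1.10, and *Dll3* had 6.15 and 20.05, a difference of 1.56. Among the glycosyltransferases that modify Notch receptors, *Mfng* (46.7 and 157.4) and *Lfng* (9.96 and 17.4) were higher in Lgr6+ progenitors, with differences of 1.73 and 0.75, and *Pofut1* was lower at -0.97. Of the ligases that activate ligands, *Mib2* (-1.08) and *Neurl1b* (-1.10) were toward Lgr5+ progenitors and *Mib1* (1.05) toward Lgr6+ progenitors. Of the 9 genes of the proteases that cleave Notch, 8 were under 1.5-fold, among them the most abundant, *Psenen* (204 and 256), and *Aph1b* passed at -0.75.

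On the side of the partners and targets of Hes and Hey proteins, the TLE corepressors, which Hes proteins recruit to silence genes, were mostly under 1.5-fold. *Aes*, the most abundant of them, had an FPKM of 232 in Lgr5+ and 230.7 in Lgr6+ progenitors, and *Tle1* (-0.65) and *Tle3* (-0.75) passed toward Lgr5+ progenitors. *Atoh1*, the gene that these repressors restrain, had 30.9 in Lgr5+ and 36.4 in Lgr6+ progenitors, a difference of 0.23 that did not reach 1.5-fold. It was the only one of 6 proneural genes that was kept. Among the Id genes, whose products bind and block bHLH partners, *Id1* (1143 and 488, a difference of -1.23) and *Id3* (1523 and 878, -0.79) were higher in Lgr5+ progenitors, *Id4* (22.4 and 51.8, 1.17) was higher in Lgr6+ progenitors and *Id2* was under 1.5-fold. The E protein gene *Tcf3* had a difference of -0.60, which turned to 0.02 after scaling by the median level of the SC markers. That scaling moved log2 values by up to 0.63, so only genes close to 1.5-fold toward Lgr5+ progenitors could turn. The other scalings by a factor moved them by at most 0.26, too little to turn any gene past 1.5-fold. *Tcf3* was the only pathway gene past 1.5-fold whose sign changed under the 5 scalings of the whole table. Genes under 1.5-fold, such as *Aes*, were not counted in this.

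Of the remaining bHLH-Orange genes, *Hes2*, *Hes3* and *Helt* were below an FPKM of 1 in both populations. *Bhlhe41*, a repressor linked to the circadian clock, had 21.7 in Lgr5+ and 1.87 in Lgr6+ progenitors, a difference of -2.99 that was larger than that of any of the 7 Hes and Hey genes. *Bhlhe40*, its close relative, had 0.19 and 3.35, a difference of 1.87 in the opposite direction.

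**Figure D4:**
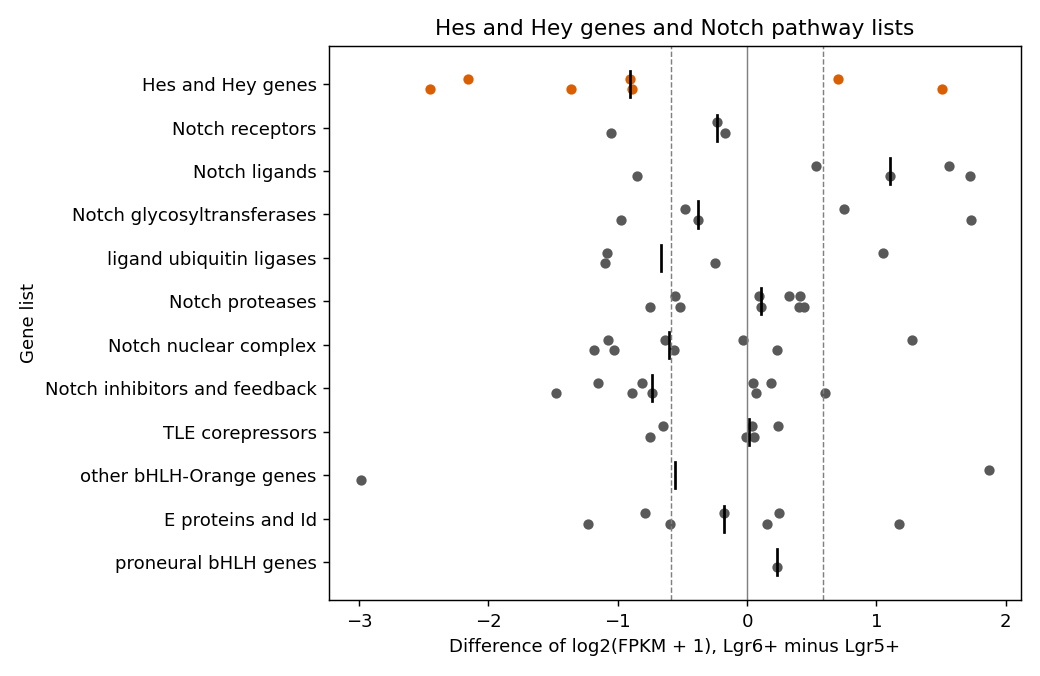
Difference of log2(FPKM + 1), Lgr6+ minus Lgr5+ (x axis), for each kept gene of the Hes and Hey genes (orange) and of 11 lists of Notch pathway and bHLH partner genes (dark grey), with the median of each list as a black bar and dashed lines at 1.5-fold. The ligands have the highest median of the lists with at least 2 kept genes, 1.10, while the 7 Hes and Hey genes have a median of -0.90, and under scaling by the median level of the SC markers every difference lies higher, by up to 0.63.

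Markers of other cells also differed between the populations. Beside the counts below, 23.3% of all kept genes lay past 1.5-fold toward Lgr5+ and 28.5% toward Lgr6+ progenitors. Each count is out of all genes of a list, though only kept genes could pass. The lists with genes that were not kept had 8 kept macrophage, 2 mural, 3 glial, 5 erythroid and 2 melanocyte markers. In bulk samples, fewer cells of a type and less RNA per cell cannot be told apart. All 12 HC markers were kept, and 9 of them lay past 1.5-fold toward Lgr6+ progenitors. Their summed FPKM was 823 in Lgr5+ and 1206 in Lgr6+ progenitors. The highest was *Pvalb* (477 and 408), which was among the 3 under 1.5-fold. Macrophage markers summed to 3.88 and 263.5, and 8 of 10 lay past 1.5-fold toward Lgr6+ progenitors, with *C1qb*, *C1qc*, *Tyrobp*, *Csf1r*, *Ptprc* and *Aif1* listed at 0 in Lgr5+ progenitors, the highest being *Cd68* (2.41) in Lgr5+ and *C1qb* (69.9) in Lgr6+ progenitors. Endothelial markers, of interest because *Hey1*, *Hey2* and *Heyl* are also active in blood vessels, summed to 28.2 and 147.7. Of these, 7 of 8 lay past 1.5-fold toward Lgr6+ progenitors and 1 toward Lgr5+ progenitors, *Egfl7* (15.2 and 74.5) was highest and *Kdr* was listed at 0 in Lgr5+ progenitors. Mural cell markers summed to 8.27 and 9.90, and 1 of 6 passed, with *Pdgfrb* (8.25 and 5.69) highest and *Rgs5*, *Kcnj8*, *Cspg4* and *Acta2* listed at 0 in Lgr5+ progenitors. Mesenchyme and fibrocyte markers summed to 320 and 577, with 4 toward Lgr6+ and 1 toward Lgr5+ progenitors of 8, led by *Lum* (179) in Lgr5+ and *Otos* (248) in Lgr6+ progenitors. Glial markers summed to 51.5 and 179.6, with 2 of 6 toward Lgr6+ progenitors, led by *Sox10* (39.5) and *Mbp* (67.4), and *Cdh19* was listed at 0 in Lgr5+ and *Foxd3* in Lgr6+ progenitors. Neuronal markers summed to 104.6 and 141.6, with 2 toward Lgr6+ and 1 toward Lgr5+ progenitors of 6, led by *Nefm* (60.2) and *Snap25* (53.4). Melanocyte markers summed to 3.84 and 52.99, with 2 of 5 toward Lgr6+ progenitors, led by *Kcnj13* in both, with *Dct* and *Mlana* listed at 0 in Lgr5+ and *Mlana* in Lgr6+ progenitors. Of the 10 marker lists, only the erythroid one had a higher sum in Lgr5+ progenitors, as the Hes and Hey genes did. It had 630 in Lgr5+ and 108 in Lgr6+ progenitors and 4 of 6 past 1.5-fold toward Lgr5+ progenitors, led by *Hbb-bs* in both. The alpha-globin entries among these 4 are listed at the same interval, and each entered the sum and the count. The part of the cells of these lists in the differences of the Hes and Hey genes was not tested.

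**Figure D5:**
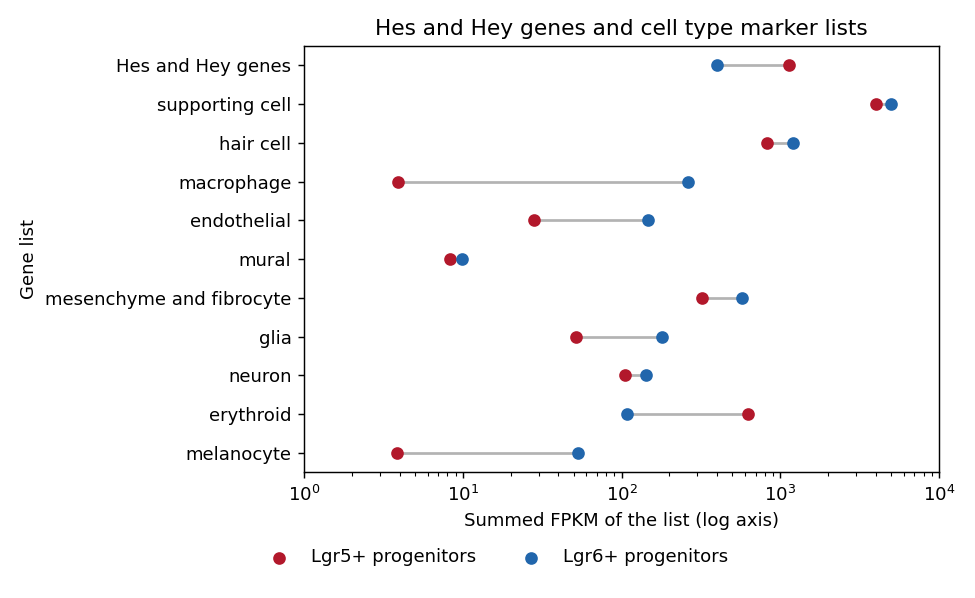
Summed FPKM (log axis) of the 7 Hes and Hey genes and of 10 cell type marker lists in Lgr5+ progenitors (red) and Lgr6+ progenitors (blue). The Hes and Hey sum is higher in Lgr5+ progenitors (1127 and 401), as is the erythroid sum (630 and 108), and the other 9 sums are higher in Lgr6+ progenitors.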

How the data were processed

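RNA-Seq libraries (4 by the labels, 2 for each population) were prepared with a SMART-Seq low-input kit. After trimming in Trimmomatic, alignment was done in TopHat, and FPKM values were obtained by the authors in Cufflinks. The versions are not given in the sources used here. Each FPKM value in the deposited table combines the libraries of a population. The methods name mm9 and the labels mm10, and 98.8% of the intervals of 22500 symbols overlapped the RefSeq gene of GRCm38.p6. The deposited fold changes, p-values and q-values of the authors' own comparison were not used.

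Values were compared as log2(FPKM + 1) for genes that reached an FPKM of 1 in either population, with a threshold of 1.5-fold, without a test. The fit planned for values of single samples could not be made. Alternatives were other pseudocounts, filters, thresholds and scalings. SC scaling multiplied the Lgr6+ values by 1.54, so that the median FPKM of the 10 SC markers was equal. The text names the 7 genes, the 3 kept genes nearest to each, every pathway gene past 1.5-fold and the highest gene of each list. A few more genes, under 1.5-fold or below the filter, were picked by their values. A further gene that is counted in a marker list is not reported here by name. The genes and lists were chosen with earlier results of these data known. Steps were read from 7761 genes with 1 transcript in GENCODE vM1, using the length less 200 bases. The code that counts genes past 1.5-fold was checked on deposited values into which known changes had been put. Python 3.11.15, numpy 2.4.6, pandas 2.3.3 and matplotlib 3.10.9 were used.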

Additional observations from a re-analysis of the deposited data

How the results depend on the processing

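A change of pseudocount cannot turn the direction of a difference. Scalings by a factor moved log2 values by at most 0.63, less than the smallest difference of the 7 genes (0.70). Only quantile normalization, which gives both populations the same set of values, could have turned a direction. With this limit, 42 of 42 values recomputed under 6 alternatives of pseudocount and scaling kept their direction, and 40 of these stayed past 1.5-fold. The exceptions were *Hes6* (-0.28) and *Hey1* (-0.27) after scaling by the median level of the SC markers, which left 3 of the 7 genes past 1.5-fold toward Lgr5+ progenitors and moved the Notch pathway and bHLH partner genes to 6 and 27. The ratio to *Sox2*, which was not among these alternatives, was higher in Lgr6+ progenitors for *Hes6* and *Hey1*. That scaling moved the median of all kept genes to 0.61, against 0.17 with the upper quartile, 0.27 with the summed FPKM and 0.24 with the median ratio of the SC markers, which was added after seeing the data. *Hes5* ran from -2.46 to -1.83 and *Hey2* from -2.42 to -1.65. *Hes7* was at 4.28 with a pseudocount of 0.1. At 2-fold the 7 genes gave 3 toward Lgr5+ and 1 toward Lgr6+ progenitors, and the pathway genes gave 10 and 8, beside 11.7% and 18.2% of all kept genes. Toward Lgr6+ progenitors, 1 of the 7 genes passed when an FPKM of 5 was asked of either population, beside 24.1% of all genes at that level. When an FPKM of 1 was asked of both, 1 passed, beside 21.4%. An FPKM of 50 in either population was an alternative added after seeing the data. There, none (0) of the 7 genes passed toward Lgr6+ progenitors. Of the pathway genes, 5 passed toward Lgr5+ and 3 toward Lgr6+ progenitors, beside 29.1% and 14.9% of all genes at that level. These changes follow from fewer genes meeting the limits. No paired analysis was possible because the table holds 1 combined value per population, and for the same reason no replicate could be left out. Counting error is not known where the steps cannot be read.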
